A study of Mus musculus with 12 samples.

Results

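The genes described here are 36 genes of macrophages, neutrophils and leukocytes in general, chosen by symbol from a list of such genes and found in the count tables of mouse sperm and testes. All 36 were among the 51826 entries of the sperm table and among the 23502 entries of the testis table. The study measured RNA by sequencing in mice that lacked the transcription factor Xap5l or, in the germline, its paralog Xap5, in order to find genes that depend on either factor during spermatogenesis. It comprised 12 libraries in 4 groups of 3 biological replicates. WT and Xap5l KO sperm came from the cauda epididymis of adult mice at postnatal day 56, and the knockout had been made with CRISPR/Cas9 on the C57BL/6J background. WT and Xap5 cKO testes were taken at day 16, and the cKO combined a floxed Xap5 allele with a Stra8-GFPCre knockin (named Stra8-EGFPCre in the sample labels), which directs Cre to male germ cells. Macrophages and other somatic cells were not aimed at by this deletion, and Xap5 was not measured in them apart. The study named floxed males (Xap5fl/Y) as controls of the cKO, the sample labels call the testis controls WT, and whether a library pooled several animals was not given in the sources used here.

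Macrophages engulf and digest cells and particles, present antigen on MHC class II molecules and release complement C1q, cytokines and chemokines. Neutrophils are short-lived granulocytes that circulate in blood and enter tissue when pattern recognition receptors on resident cells trigger chemokine release. Resident macrophages lie in the interstitium of the testis and around its tubules, and a dense network of macrophages and other mononuclear phagocytes surrounds the epididymal tubule. Spermatozoa themselves belong to neither lineage, and from which cells of these samples the transcripts came was not tested.

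Library totals ranged from 38881197 to 52308452 counts in sperm and from 32251198 to 36759054 counts in testes. The mutated genes followed the labels: Fam50b, which encodes Xap5l, had 574, 440 and 419 counts in WT sperm against 18, 23 and 8 in Xap5l KO sperm. Fam50a, which encodes Xap5, had 819, 811 and 988 counts in WT testes against 673, 616 and 651 in Xap5 cKO testes. The smaller difference in testes (log2 fold change -0.33, standard error 0.126, edgeR adjusted p = 0.0495) was measured in whole testes, in which germ cells and somatic cells were not separated. In the other table of each pair, Fam50a had 548, 705 and 689 counts in WT sperm against 296, 487 and 649 in Xap5l KO sperm. Fam50b had 532, 539 and 197 counts in WT testes against 6, 0 and 7 in Xap5 cKO testes. Levels below are given as CPM after TMM scaling in edgeR, and a gene was called downregulated or upregulated at an adjusted p under 0.05 with a fold change above 2 in the quasi-likelihood test of edgeR with Benjamini-Hochberg adjustment over all genes tested in that tissue.

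Replicate 1 of Xap5l KO sperm stood apart from the other sperm libraries for these 36 genes. Among the 36 genes, 29 had their lowest CPM of the 6 sperm libraries in that replicate, against 2 in Xap5l KO replicate 2, 4 in Xap5l KO replicate 3, 1 in WT replicate 3 and 0 in WT replicates 1 and 2. The median log2 ratio of the 36 genes to their WT mean, with 0.5 CPM added to both, was -1.58 in Xap5l KO replicate 1, -0.87 in replicate 2 and -0.79 in replicate 3, and 0.09, -0.18 and 0.10 in the WT libraries. Mitochondrially encoded genes took 27.4% of the counts of that replicate, compared with 18.6% and 10.5% in Xap5l KO replicates 2 and 3 and 20.2%, 24.0% and 19.3% in the WT libraries. With TMM without mitochondrial genes, 17 of the 36 genes were called downregulated and their median log2 fold change was -1.04, both as with them. The part of this difference in the results was not tested further. Over the entries tested, apart from those with few counts in the 2 libraries compared, Xap5l KO replicate 3 was the furthest from its group. Its chi-square per degree of freedom was 546 against replicate 1 and 349 against replicate 2, where replicates 1 and 2 had 151. For the 36 genes, the number of calls in sperm is therefore given with and without Xap5l KO replicate 1, and without each other library. In testes, the same median was 0.99, 0.97 and 0.56 in the Xap5 cKO libraries and 0.17, -0.06 and -0.14 in the WT libraries, over 34 genes with at least 1 count.

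**Figure D1:**
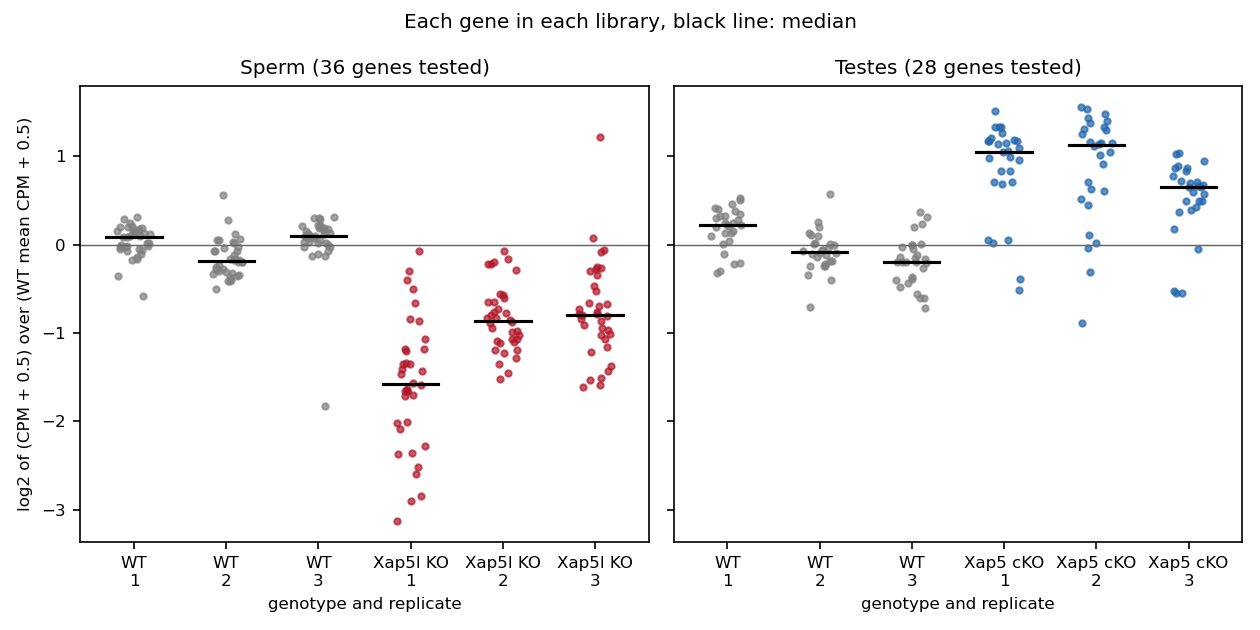
Each point is 1 gene in 1 library, as log2 of its CPM over the mean CPM of the 3 WT libraries of that tissue with 0.5 added to both (vertical axis), by genotype and replicate (horizontal axis), for the 36 genes tested in sperm and the 28 tested in testes. Black lines are medians, which lay below 0 in the 3 Xap5l KO sperm libraries, lowest in replicate 1, and above 0 in the 3 Xap5 cKO testis libraries.

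Most of the 36 genes had lower CPM in Xap5l KO sperm than in WT sperm. All 36 genes passed the filter on low counts, and 35 had a negative log2 fold change, with S100a8 as the exception. Of the 36, 17 were called downregulated (1.27% of the 20945 genes tested in sperm were) and 0 were called upregulated (7.59% of all genes were), and at an unadjusted p under 0.05 or with DESeq2 the number upregulated was also 0. The median log2 fold change was -1.04, against -0.08 over all genes tested. For 29 of the 36 genes, all Xap5l KO libraries lay below all WT libraries in CPM (19.2% of all genes tested did), and for 0 genes they all lay above (19.2% of all genes tested did). The sum of the 36 genes was 5478, 5730 and 6104 CPM in WT sperm, to the nearest unit, and 3505, 3149.5 and 3360.1 CPM in Xap5l KO sperm, but Cd52 alone took 71.5% of it. Without Cd52 the sum was 1839, 1591 and 1902 CPM in WT sperm against 487, 901 and 1071 CPM in Xap5l KO sperm, so each Xap5l KO library was below each WT library on either count. These are whole preparations, and CPM are shares of a library. A change in leukocyte number, in RNA of these genes per leukocyte or in the amount of other RNA therefore cannot be told apart, here or in testes.

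The number of calls in sperm depended on single libraries, and all the calls given below for sperm genes share that limit. It was 7 when WT replicate 1 was left out, where 1.60% of all genes tested were called downregulated. It was 5 when Xap5l KO replicate 1 was left out. It was 21 when Xap5l KO replicate 3 was left out, where 2.07% of all genes tested were called so. Omission of WT replicate 2, of WT replicate 3 or of Xap5l KO replicate 2 each gave 0. In those 3 fits 1, 1 and 2 genes of the whole table were called downregulated. With library size alone in place of TMM, 7 of the 36 genes and 0.711% of all genes tested were called downregulated. In the fit with TMM and all 6 libraries, the smallest adjusted p of any gene in sperm was 0.0118. The direction was less dependent on the library, since 35 of the 36 genes had a negative log2 fold change in 5 of these fits and 36 did without Xap5l KO replicate 3. Without Xap5l KO replicate 1, the median of the 36 genes was -0.81, the 5 genes called downregulated were Mrc1, Csf3r, Clec4d, Tlr2 and Il1b, and 0.329% of the 21609 genes tested were called so.

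In testes most of the genes that could be tested had positive log2 fold changes. Of the 36, 34 had at least 1 count and 28 passed the filter, which a gene can pass through the genotype in which it is higher, so the figures for these 28 describe them alone. Among them, 25 had a positive log2 fold change, 16 were called upregulated (4.15% of the 16821 genes tested in testes were) and 0 were called downregulated (10.9% of all genes were), and the number downregulated was also 0 at an unadjusted p under 0.05 and with DESeq2. The median log2 fold change was 1.04, against -0.01 over all genes tested. Every Xap5 cKO library lay above every WT library for 21 of the 28 genes (29.9% of all genes tested) and below every WT library for 0 (32.4% of all genes tested). The sum of the 36 genes was 345.6, 265.2 and 244.2 CPM in WT testes against 570.1, 607.0 and 442.2 CPM in Xap5 cKO testes, and Mrc1, the gene with most counts, took 19.5% of it. Each Xap5 cKO library was above each WT library, with replicate 3 the lowest of the mutants and WT replicate 1 the highest of the controls. The number called upregulated was 7 without WT replicate 3, where 5.14% of all genes tested were, and 9 without Xap5 cKO replicate 2, where 3.83% were. Without any other single library it was between 12 and 19, where between 3.26% and 4.28% of all genes tested were.

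The direction of change thus differed between the preparations. Of the 28 genes tested in both tissues, 25 (89.3%) had a negative log2 fold change in Xap5l KO sperm and a positive one in Xap5 cKO testes, a pattern seen in 35.6% of the 13962 genes tested in both, and 3 (Fcgr3, H2-Ab1 and Csf3r) were negative in both. A fit over all 12 libraries tested the difference between the change in sperm and the change in testes for each gene. In it 25 of the 36 genes had a change that was lower in sperm at an adjusted p under 0.05 (17.0% of 16889 genes did) and 0 had a change that was higher in sperm (17.9% did), with 27 of 36 at an unadjusted p under 0.05. Among the 28 genes tested in both tissues, 22 differed, and the difference of the log2 fold changes had a median of -1.88 and was furthest from 0 for Tlr2, followed by Cd14 at -2.51, and nearest to 0 for Fcgr3 at -0.56. The other 3 calls, of Clec4d, Clec7a and Ccl4, rest on testis counts too low to be tested within that tissue with all 6 libraries. Leaving out any 1 library gave between 22 and 26 calls, where between 11.6% and 19.0% of all genes had a change that was lower in sperm. Gene mutated, tissue and age changed together between these 2 comparisons and cannot be told apart. Such a change of sign was not particular to these genes. Leydig cell (median -1.17 in sperm, 1.04 in testes), Sertoli cell (-0.58, 0.70), fibroblast (-0.49, 0.84) and endothelium genes (-0.47, 0.60) also had it. So did erythroid, platelet, dendritic cell and general epithelium genes by their medians. Lymphocyte (-0.73, -0.62), other MHC class II pathway, peritubular myoid cell (0.15, 0.27), epididymal, spermatogonia, spermatocyte, and spermatid and sperm genes did not.

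**Figure D2:**
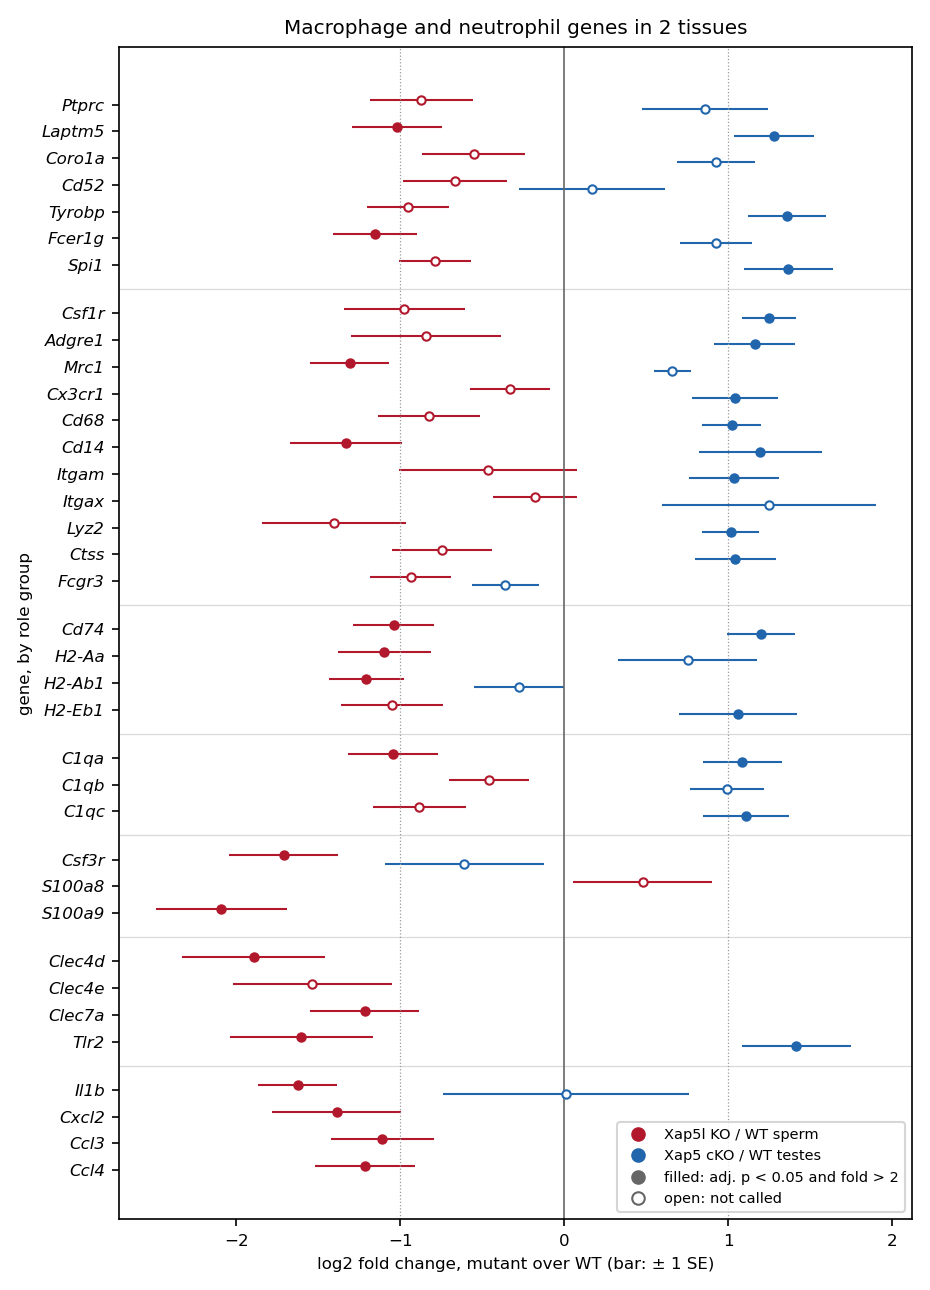
Log2 fold change of each of the 36 genes, mutant over WT (horizontal axis, bars ± 1 standard error, 3 libraries per genotype), in sperm (red) and in testes (blue), with genes grouped by role from leukocyte genes at the top to cytokines and chemokines at the bottom. Filled points are genes called at an adjusted p under 0.05 with a fold change above 2, open points are genes tested but not called, dotted lines mark a fold change of 2, the 8 genes not tested in testes have no blue point, and 35 of 36 red points lie left of 0 and 25 of 28 blue points right of it.

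Genes shared by all or most leukocytes were represented by Ptprc, which encodes the CD45 phosphatase, Laptm5, a lysosomal membrane protein, Coro1a, an actin regulator, Cd52, a small GPI-anchored surface glycoprotein, Tyrobp and Fcer1g, the adaptors that carry the signalling motifs of many myeloid receptors, and Spi1, which encodes the myeloid transcription factor PU.1. In sperm the log2 fold changes of the 7 genes lay between -1.15 and -0.55, and 2 were called downregulated. Fcer1g had 499, 412 and 658 counts in WT sperm against 188, 414 and 275 in Xap5l KO sperm, which is 13.0 ± 2.86 CPM (SD, n = 3) and 5.85 ± 1.44 CPM. All 3 Xap5l KO libraries were below the WT libraries in CPM, and replicates 1 and 3 were the lowest. The fold change was 2.23 downward (log2 -1.15, standard error 0.258, edgeR adjusted p = 0.0248), and with any 1 library left out the log2 value lay between -1.37 and -0.94. Laptm5 was also called (log2 -1.02, edgeR adjusted p = 0.0424), while Tyrobp (-0.95) and Spi1 (-0.79) had adjusted p of 0.0393 and 0.0479 at less than a 2-fold change, and Ptprc (-0.87) and Coro1a (-0.55) did not pass. Cd52 had by far the most counts of the 36 genes in sperm, 119953, 174139 and 194689 in WT against 105709, 124540 and 133413 in Xap5l KO libraries, or 3993 ± 308 and 2519 ± 433 CPM (SD, n = 3). The Xap5l KO libraries were below the WT libraries, and here replicate 1 was the highest of the Xap5l KO libraries at 3018 CPM, unlike for most of the other genes. The log2 fold change was -0.66 (standard error 0.315, edgeR adjusted p = 0.170), which was not called. Cd52 is also a major secretory product of the epididymal epithelium, so its level in sperm does not mark leukocytes alone.

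In testes the 7 genes had log2 fold changes between 0.17 and 1.37, and Laptm5, Tyrobp and Spi1 were called upregulated. Of the entries with an unsuffixed name, Laptm5 had the most counts of the group, 226, 284 and 261 in WT against 697, 683 and 369 in Xap5 cKO testes, or 7.26 ± 0.531 and 17.6 ± 5.63 CPM (SD, n = 3). Each Xap5 cKO library was above each WT library, and replicate 3 was the lowest of the mutants. It rose 2.43-fold (log2 1.28, standard error 0.244, edgeR adjusted p = 0.00198), and a further table entry of the same gene, with 372, 237 and 263 counts in WT against 667, 642 and 466 in Xap5 cKO testes, gave a log2 fold change of 1.11. Tyrobp had 123, 120 and 100 counts in WT testes against 255, 352 and 222 in Xap5 cKO testes, or 3.24 ± 0.443 and 8.33 ± 1.83 CPM (SD, n = 3). The genotypes did not overlap, and the increase was 2.57-fold (log2 1.36, standard error 0.237, edgeR adjusted p = 0.00116). Laptm5, Tyrobp and Spi1 (log2 1.37) were called in all 6 fits with 1 library left out, Coro1a (0.92) and Fcer1g (0.92) passed the adjusted p at less than a 2-fold change, and Ptprc (0.86) did not pass. Cd52 had between 23 and 57 counts in the 6 testis libraries and a log2 fold change of 0.17 (edgeR adjusted p = 0.772). The change differed between sperm and testes for all of these genes but Cd52 (difference -0.80, edgeR adjusted p = 0.173), most for Tyrobp at -2.29 and Laptm5 at -2.27.

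Macrophage and monocyte genes comprised Csf1r, the receptor for the growth factor CSF1 on which macrophages depend, Adgre1, which encodes the F4/80 surface antigen, the mannose receptor Mrc1, the fractalkine receptor Cx3cr1, the endosomal and lysosomal glycoprotein Cd68, the lipopolysaccharide co-receptor Cd14, the integrin chains Itgam (CD11b) and Itgax (CD11c), the lysozyme gene Lyz2, the lysosomal protease cathepsin S (Ctss) and the Fc receptor for IgG Fcgr3. All 11 had negative log2 fold changes in sperm, from -1.41 to -0.18, and 2 were called downregulated. Lyz2, with the most counts of the group, had 18896, 22647 and 27146 counts in WT sperm against 2748, 12878 and 19191 in Xap5l KO sperm, or 566 ± 24.7 and 213 ± 127 CPM (SD, n = 3). The WT libraries lay close together, all Xap5l KO libraries were lower, and Xap5l KO replicate 1, at 78.5 CPM, was far below replicates 2 and 3 at 233 and 329 CPM. With this spread the log2 fold change of -1.41 (standard error 0.439) had an edgeR adjusted p of 0.0625 and was not called, and without replicate 1 it was -1.01 with an adjusted p of 0.0979. Mrc1 was less abundant and more even, with 258, 360 and 329 counts in WT sperm against 122, 133 and 210 in Xap5l KO sperm, or 7.83 ± 0.728 and 3.16 ± 0.662 CPM (SD, n = 3). The genotypes did not overlap, and Xap5l KO replicates 1 and 3, at 3.48 and 3.60 CPM, were alike, with replicate 2 lower at 2.40 CPM. Mrc1 was 2.48-fold lower (log2 -1.31, standard error 0.242, edgeR adjusted p = 0.0162), and the log2 value ranged from -1.38 to -1.14 with any 1 library left out. Cd14 was the other gene called (log2 -1.33, edgeR adjusted p = 0.0367). Csf1r (-0.97), Fcgr3 (-0.94), Adgre1 (-0.84), Cd68 (-0.83), Ctss (-0.74), Itgam (-0.46), Cx3cr1 (-0.33) and Itgax (-0.18) were not. Csf1r and Adgre1 showed the same gradation as Lyz2, with 10.7 and 4.80 CPM in Xap5l KO replicate 1 but 36.5 and 25.4 CPM in replicate 3, where the WT libraries held between 42.9 and 47.9 CPM of Csf1r and between 25.4 and 28.4 CPM of Adgre1.

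Itgam was listed under 2 entries in the sperm table. The larger had 1867, 2832 and 578 counts in WT sperm against 579, 2168 and 2510 in Xap5l KO sperm, and the smaller had 277, 1 and 2769 in WT and 0 in each Xap5l KO library. WT replicate 3 was thus low in the larger entry and high in the smaller. With the 2 entries summed, an alternative chosen after the data were seen, Itgam had 2144, 2833 and 3347 counts in WT against 579, 2168 and 2510 in Xap5l KO sperm, and a log2 fold change of -1.05 (standard error 0.323, edgeR adjusted p = 0.0598).

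In testes 8 of the 11 genes were called upregulated, and only Fcgr3 had a negative log2 fold change. Mrc1 had the most counts, 2253, 2280 and 2071 in WT testes against 3582, 3489 and 2703 in Xap5 cKO testes, or 62.4 ± 4.76 and 98.6 ± 15.0 CPM (SD, n = 3). Every Xap5 cKO library was above every WT library, and replicate 3 was nearest to WT. The log2 fold change was 0.66 (standard error 0.115, edgeR adjusted p = 0.00119), which passed the test at less than a 2-fold change and was not called. Csf1r had the smallest p, with 1097, 926 and 887 counts in WT testes against 2261, 2565 and 1671 in Xap5 cKO testes, or 27.6 ± 4.42 and 65.4 ± 13.0 CPM (SD, n = 3). The genotypes were well apart, with the lowest Xap5 cKO library at 50.8 CPM and the highest WT library at 32.7 CPM. Csf1r rose 2.37-fold (log2 1.25, standard error 0.166, edgeR adjusted p = 0.000255) and remained called with any 1 library left out. Adgre1 (1.16), Cd14 (1.20), Cx3cr1 (1.04), Ctss (1.04), Itgam (1.03), Cd68 (1.02) and Lyz2 (1.02) were called at fold changes from 2.02 to 2.29. Of the 6 fits with 1 library left out, Adgre1 was called in 5, Itgam in 4, Cd14, Cd68, Lyz2 and Ctss in 3 each and Cx3cr1 in 2. Itgax, with between 7 and 49 counts per library, had a log2 fold change of 1.25 and an edgeR adjusted p of 0.137. Fcgr3 had 758, 767 and 530 counts in WT testes against 433, 643 and 433 in Xap5 cKO testes, and the ranges overlapped (log2 -0.36, edgeR adjusted p = 0.172). Its change did not pass the test for a difference between sperm and testes (-0.56, edgeR adjusted p = 0.195), nor did those of Itgam and Itgax, while the other 8 genes passed, with differences from -2.51 for Cd14 to -1.35 for Cx3cr1.

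MHC class II genes encode the molecules with which macrophages, dendritic cells and B cells show peptides to helper T cells: H2-Aa and H2-Ab1 form the I-A heterodimer, H2-Eb1 the beta chain of I-E, and Cd74 the invariant chain that escorts them to the endosome. The 3 H2 genes lie side by side on chromosome 17 of GRCm38, from 34257689 for H2-Ab1 to 34316674 for H2-Eb1. In sperm the 4 genes had similar log2 fold changes, from -1.21 to -1.04, and 3 were called downregulated. Cd74 had 7314, 6873 and 10898 counts in WT sperm against 2833, 5926 and 6630 in Xap5l KO sperm, or 207 ± 38.2 and 101 ± 17.4 CPM (SD, n = 3). All Xap5l KO libraries were below all WT libraries, with less distance between the Xap5l KO replicates than for Lyz2. Cd74 fell 2.06-fold (log2 -1.04, standard error 0.245, edgeR adjusted p = 0.0291), and without Xap5l KO replicate 1 the log2 value was -0.91 with an adjusted p of 0.105. H2-Ab1 had 3647, 3138 and 5247 counts in WT against 1357, 2398 and 2756 in Xap5l KO sperm, or 99.5 ± 21.6 and 43.1 ± 4.28 CPM (SD, n = 3). The Xap5l KO libraries were close together, between 38.7 and 47.3 CPM, and none overlapped the WT range. It fell 2.31-fold (log2 -1.21, standard error 0.230, edgeR adjusted p = 0.0171). H2-Aa was called as well (-1.10), and H2-Eb1 (-1.05) had an adjusted p of 0.0548.

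Levels were far lower in testes. Cd74 had 256, 206 and 180 counts in WT testes against 517, 438 and 429 in Xap5 cKO testes, or 6.09 ± 1.36 and 14.0 ± 1.81 CPM (SD, n = 3). The genotypes did not overlap, and Cd74 rose 2.30-fold (log2 1.20, standard error 0.207, edgeR adjusted p = 0.00113). H2-Eb1, with between 27 and 84 counts per library, was also called (1.06, edgeR adjusted p = 0.0322), whereas H2-Aa (0.75, edgeR adjusted p = 0.165) and H2-Ab1 (-0.28) were not. With 1 library left out, Cd74 was called in all 6 fits and H2-Eb1 in 1. The H2 genes were each listed under 4 entries in the testis table, of which 2 had counts. The second entry of H2-Aa, with 51, 23 and 24 counts in WT against 77, 71 and 65 in Xap5 cKO testes, was called upregulated (1.20, edgeR adjusted p = 0.0416), as was that of H2-Eb1 (1.29) but not that of H2-Ab1 (-0.33). With the entries summed the log2 fold changes were 0.95 for H2-Aa (edgeR adjusted p = 0.0394, under 2-fold), -0.30 for H2-Ab1 and 1.17 for H2-Eb1 (called). However, the entries of each H2 gene had equal counts in several libraries, and those of H2-Ab1 had 156, 137 and 121 against 157, 137 and 121 in WT. The same reads may thus be counted in both, so the second entries and the sums are no separate evidence. The change differed between sperm and testes for all 4 genes, least for H2-Ab1 (-0.90, edgeR adjusted p = 0.0278) and most for Cd74 (-2.22).

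C1qa, C1qb and C1qc encode the 3 chains of C1q, the recognition protein of the classical complement pathway, which tissue macrophages secrete, and the genes follow each other on the minus strand of chromosome 4 between 136880129 and 136898803. C1qb had 1800, 1407 and 2503 counts in WT sperm against 1044, 2258 and 1908 in Xap5l KO sperm, or 47.4 ± 12.1 and 34.4 ± 5.67 CPM (SD, n = 3). The genotypes overlapped, because WT replicate 2 (33.4 CPM) was below Xap5l KO replicate 2 (40.8 CPM), and the log2 fold change of -0.46 did not pass (standard error 0.245, edgeR adjusted p = 0.215). C1qa had 1199, 1382 and 1911 counts in WT against 381, 1136 and 1288 in Xap5l KO sperm, or 36.8 ± 4.22 and 17.8 ± 6.07 CPM (SD, n = 3). No Xap5l KO library reached the WT range, and replicate 1 was the lowest at 10.9 CPM. C1qa fell 2.06-fold (log2 -1.04, standard error 0.275, edgeR adjusted p = 0.0394), but had an adjusted p of 0.0924 without Xap5l KO replicate 1, and C1qc (-0.88) was not called. In testes C1qb had 928, 613 and 551 counts in WT against 1354, 1533 and 1045 in Xap5 cKO libraries, or 19.9 ± 6.72 and 39.6 ± 6.97 CPM (SD, n = 3). All Xap5 cKO libraries were above the WT libraries, of which replicate 1 was the highest at 27.6 CPM. The log2 fold change of 0.99 (standard error 0.226, edgeR adjusted p = 0.00521) was just under the 2-fold threshold. C1qa had 756, 612 and 388 counts in WT testes against 1087, 1418 and 1018 in Xap5 cKO testes, or 16.7 ± 5.86 and 35.4 ± 5.54 CPM (SD, n = 3). Its genotypes did not overlap either, and the rise was 2.12-fold (log2 1.09, standard error 0.240, edgeR adjusted p = 0.00440), close to that of C1qc (1.11, called). With 1 library left out, C1qa was called in 4 of 6 fits, C1qb in 2 and C1qc in 5. The 3 chains thus moved by near equal amounts in testes, and in sperm C1qb moved least. All 3 changes differed between the tissues, by -2.11 for C1qa, -1.97 for C1qc and -1.43 for C1qb.

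Neutrophil genes were Csf3r, the receptor for the granulocyte growth factor CSF3, and S100a8 and S100a9, which encode the subunits of calprotectin, the most plentiful cytosolic protein of neutrophils. S100a8 and S100a9 neighbour each other on chromosome 3, at 90668978 to 90670035 and 90692632 to 90695721. Csf3r had 357, 519 and 616 counts in WT sperm against 68, 299 and 217 in Xap5l KO sperm, or 12.2 ± 1.24 and 3.69 ± 1.73 CPM (SD, n = 3). All Xap5l KO libraries were well below WT, and the fold change was 3.27 downward (log2 -1.71, standard error 0.333, edgeR adjusted p = 0.0177). Without Xap5l KO replicate 1 it was still called (log2 -1.42, edgeR adjusted p = 0.0407). S100a9 had 44, 120 and 119 counts in WT against 13, 28 and 40 in Xap5l KO sperm, or 2.25 ± 0.807 and 0.521 ± 0.158 CPM (SD, n = 3). The genotypes did not overlap, although WT replicate 1, at 1.33 CPM, was nearer to the Xap5l KO libraries than the other WT libraries were. S100a9 had the largest decrease of the 36 genes, 4.26-fold (log2 -2.09, edgeR adjusted p = 0.0171), and without Xap5l KO replicate 1 the log2 value was -1.92 with an edgeR adjusted p of 0.0535. Its partner S100a8 went the other way in a single library, with 127, 129 and 163 counts in WT against 96, 165 and 510 in Xap5l KO sperm. Xap5l KO replicate 3 alone was above the WT libraries, and the log2 fold change of 0.48 (edgeR adjusted p = 0.444) was -0.20 without that library and at most 0.75 in any fit with 1 library left out. In testes S100a8 and S100a9 had 0 counts in all 6 libraries, which allows at most 0.0823 to 0.0933 CPM per library at 3 counts, for counting error only. Csf3r had 33, 62 and 49 counts in WT testes against 44, 17 and 26 in Xap5 cKO testes, with overlapping ranges (log2 -0.61, standard error 0.483, edgeR adjusted p = 0.317), and was not called. Its change did not pass the test for a difference between sperm and testes (-1.07, standard error 0.550), and that difference could not be estimated for S100a8 and S100a9.

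Pattern recognition receptors were represented by the C-type lectin receptors Clec4e (Mincle), which binds mycobacterial glycolipids and a protein of dead cells, Clec4d, its partner encoded next to it on chromosome 6, and Clec7a (Dectin-1), which binds fungal beta-glucan, and by Tlr2, the Toll-like receptor for bacterial lipoproteins. These 4 genes had some of the largest decreases in sperm, with log2 fold changes from -1.89 to -1.22, and 3 were called. Clec4e had 662, 760 and 1230 counts in WT sperm against 71, 508 and 641 in Xap5l KO sperm, or 21.6 ± 4.43 and 7.40 ± 4.74 CPM (SD, n = 3). Xap5l KO replicate 1, at 2.03 CPM, was much lower than replicates 2 and 3 at 9.17 CPM or more, and none reached the WT range. The log2 fold change was -1.53 (standard error 0.484, edgeR adjusted p = 0.0648), and -1.10 without replicate 1 (edgeR adjusted p = 0.0573). Clec4d had 138, 243 and 300 counts in WT against 19, 125 and 91 in Xap5l KO sperm, or 5.48 ± 1.17 and 1.45 ± 0.862 CPM (SD, n = 3). Again all Xap5l KO libraries were below WT with replicate 1 the lowest, and the decrease was 3.72-fold (log2 -1.89, standard error 0.438, edgeR adjusted p = 0.0275). It was called without Xap5l KO replicate 1 as well (log2 -1.52, edgeR adjusted p = 0.0475). Tlr2 (-1.60) and Clec7a (-1.22) were called, and of these Tlr2 was called without that library. In testes Tlr2 was the only gene of the group that passed the filter. It had 78, 54 and 53 counts in WT testes against 167, 197 and 102 in Xap5 cKO testes, or 1.76 ± 0.488 and 4.69 ± 1.41 CPM (SD, n = 3). Each Xap5 cKO library was above each WT library, and the rise of 2.67-fold (log2 1.42, standard error 0.332, edgeR adjusted p = 0.00606) was the largest of the 28 genes. Clec4d had 2, 0 and 3 counts in WT against 10, 3 and 10 in Xap5 cKO testes. Clec7a had 6, 5 and 5 against 28, 10 and 6, and Clec4e had 5, 7 and 8 against 5, 4 and 0. These were too few to be tested in this tissue with all 6 libraries. Tlr2 had the largest difference between sperm and testes among the genes tested in both (standard error 0.599, edgeR adjusted p = 0.00232), ahead of Cd14 at -2.51.

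Inflammatory cytokine and chemokine genes were Il1b, the interleukin 1 beta precursor, Cxcl2, a chemokine that draws neutrophils, and Ccl3 and Ccl4, the macrophage inflammatory proteins that attract monocytes and T cells, whose genes lie next to each other on chromosome 11. All 4 were called downregulated in sperm. Cxcl2 had 1322, 1324 and 2334 counts in WT sperm against 222, 1118 and 1164 in Xap5l KO sperm, or 40.7 ± 9.46 and 15.5 ± 7.93 CPM (SD, n = 3). Xap5l KO replicate 1, at 6.34 CPM, was well below replicates 2 and 3 at 20.2 and 20.0 CPM, and all 3 were below the WT range. Cxcl2 fell 2.62-fold (log2 -1.39, standard error 0.395, edgeR adjusted p = 0.0490), and without Xap5l KO replicate 1 the log2 value was -1.02 with an adjusted p of 0.0727. Il1b had 722, 832 and 1216 counts in WT against 185, 477 and 470 in Xap5l KO sperm, or 22.6 ± 3.30 and 7.32 ± 1.79 CPM (SD, n = 3). The genotypes were far apart relative to the spread within each, since the highest Xap5l KO library held 8.61 CPM and the lowest WT library 19.8 CPM. Il1b had the smallest p of the 36 genes in sperm, with a 3.09-fold decrease (log2 -1.63, standard error 0.242, edgeR adjusted p = 0.0122), and was called without Xap5l KO replicate 1 (log2 -1.44, edgeR adjusted p = 0.0379). Ccl4 (-1.22) and Ccl3 (-1.11) were called with adjusted p of 0.0347 and 0.0483. In testes counts were low. Il1b had 10, 32 and 4 counts in WT against 15, 15 and 13 in Xap5 cKO testes, with a log2 fold change of 0.01 (standard error 0.748, edgeR adjusted p = 0.990), with WT replicate 2 above all Xap5 cKO libraries and WT replicates 1 and 3 below them. The sign depended on single libraries, with -0.19 without WT replicate 1, 1.08 without WT replicate 2, -0.44 without WT replicate 3 and -0.04 without Xap5 cKO replicate 1. Cxcl2 had 0, 0 and 1 against 5, 0 and 0 counts, and Ccl3 had 0, 2 and 2 against 0, 0 and 0. Ccl4 had 0, 0 and 0 against 11, 10 and 0, and none of these 3 was tested there with all 6 libraries. For Cxcl2 and Ccl3 the testis data therefore give no direction. Ccl4 was tested in 4 fits with 1 library left out, at log2 fold changes from 5.86 to 6.47, and was called upregulated in 1. The difference between sperm and testes did not pass for Il1b (-1.61, edgeR adjusted p = 0.0651).

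Levels were compared between genes per kilobase of annotated exon. In WT sperm Cd52 (3364 CPM per kb) was followed by Lyz2 (430), Cd74 (123), C1qb (43.5) and H2-Ab1 (38.7), and the lowest were Itgax (0.816), Cx3cr1 (1.06) and Mrc1 (1.23). In WT testes the order was led by Lyz2 (29.1 CPM per kb), C1qb (18.3), C1qa (16.1), Fcgr3 (11.2) and Mrc1 (9.79), with the pattern recognition receptors at or below 0.584 CPM per kb. Mrc1, a marker of resident tissue macrophages, thus ranked among the highest of these genes per length in testes and among the lowest in sperm preparations. Exons of Cd52, Coro1a, Csf1r, Cx3cr1 and Il1b overlap a gene on the opposite strand in the annotation and those of Itgam and Cd74 a gene on the same strand, and whether counting used the strand was not given in the sources used here, so reads of such pairs cannot be told apart.

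Promoter sequence, from 250 bases before to 50 bases after the transcription start, was available from RefSeq (GRCm38.p6) for 26 of the 36 genes, with 30 promoters. Both strands were searched for GAGGAA, the core of the motif bound by PU.1, the product of Spi1, and for CCCCGCCC, a GC-rich string of the kind bound by Sp factors. The study reported the latter as common to the motifs of Xap5 and Xap5l. In no promoter shown did matches of both strings share a base. GAGGAA occurred in 18 of the 30 promoters and in 28.3% of all 32851 promoters of the same length, or 26.8% of the 17256 of genes tested in sperm. CCCCGCCC occurred in 2 of the 30 (6.67%), in 17.6% of all promoters and in 27.3% of those of genes tested in sperm. These shares describe the sequence only. The promoters of 3 of the genes with the smallest p in sperm are shown 5′ to 3′ on the strand of the gene to let the reader see the sequence around their start sites, with matches in capitals.
Il1b, chr2:129371090-129371389, minus strand: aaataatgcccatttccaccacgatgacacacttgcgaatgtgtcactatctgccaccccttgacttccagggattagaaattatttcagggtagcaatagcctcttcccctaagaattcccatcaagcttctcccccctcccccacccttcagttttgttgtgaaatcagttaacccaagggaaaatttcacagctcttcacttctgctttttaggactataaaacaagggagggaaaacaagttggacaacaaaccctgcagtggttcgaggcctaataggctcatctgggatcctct
Mrc1, chr2:14229164-14229463, plus strand: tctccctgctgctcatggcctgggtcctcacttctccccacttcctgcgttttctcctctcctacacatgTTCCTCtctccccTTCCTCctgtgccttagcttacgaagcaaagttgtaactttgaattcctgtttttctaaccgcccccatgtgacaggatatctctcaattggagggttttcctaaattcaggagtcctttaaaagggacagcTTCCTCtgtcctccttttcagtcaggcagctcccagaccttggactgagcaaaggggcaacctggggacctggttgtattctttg
S100a9, chr3:90695672-90695971, minus strand: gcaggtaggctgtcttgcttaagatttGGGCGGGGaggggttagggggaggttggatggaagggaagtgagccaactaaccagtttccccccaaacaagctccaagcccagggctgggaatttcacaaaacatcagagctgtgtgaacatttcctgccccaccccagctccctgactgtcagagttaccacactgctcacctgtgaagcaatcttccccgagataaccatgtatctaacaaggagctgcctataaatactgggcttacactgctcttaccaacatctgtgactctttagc

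The Mrc1 promoter held 3 matches of GAGGAA, all read on the opposite strand as TTCCTC, the S100a9 promoter held 1 match of CCCCGCCC, read as GGGCGGGG, and the Il1b promoter held neither string.

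Further genes of the same cells and pathways behaved alike in part. Of 25 other macrophage and monocyte genes, 5 were called downregulated and 1 upregulated among the 25 tested in sperm (median log2 fold change -0.82), and 0 and 7 of 22 tested in testes (median 0.91). In sperm Cybb, the phagocyte oxidase subunit and the most abundant of them, had 1861, 2373 and 2919 counts in WT against 375, 1453 and 2278 in Xap5l KO libraries (log2 -1.21, edgeR adjusted p = 0.0657). The co-stimulatory ligand Cd86 (-1.74) and the inhibitory receptor Lilrb4a (-1.27) were called downregulated, while a smaller second entry of Lilrb4a was not (-1.68, edgeR adjusted p = 0.0890). Aif1, which encodes the calcium-binding protein Iba1, was called upregulated, with 992, 815 and 792 against 2224, 3027 and 3117 counts (log2 1.37, edgeR adjusted p = 0.0160). In testes the perforin-like Mpeg1 was the most abundant (0.44, edgeR adjusted p = 0.000782), and the inhibitory Fc receptor Fcgr2b (1.55) and Cd86 (1.35) were called upregulated. The direction of Cd86 thus differed as it did for most of the 36 genes, while Aif1 did not follow the others in sperm. Of 20 other C-type lectin and Toll-like receptor genes, 2 of 18 tested were called downregulated in sperm (Clec4a1 at -1.34 and Clec4a3 at -1.41; median -0.71), and 6 of 18 upregulated in testes (among them the endosomal RNA sensors Tlr8 and Tlr7, the latter at 1.19; median 1.13). Their most abundant genes, the kinase Syk in sperm (-0.86) and the adaptor Myd88 in testes (-0.27), were not called. Of 21 other cytokine and NF-kB response genes, 6 of 20 were called downregulated in sperm (median -0.97), including Nfkbiz, the most abundant (-1.01, edgeR adjusted p = 0.0472), Il1a (-1.54) and the monocyte chemokine Ccl7 (-1.46). In testes 3 of 13 were called upregulated, among them Socs3 (1.75) and Cxcl1, and Il1a alone was called downregulated (-1.07). The inhibitor Nfkbia, the most abundant, had a log2 fold change of 0.97 (edgeR adjusted p = 2.53e-05) that was just under 2-fold. The counts of these lists in sperm also depended on Xap5l KO replicate 1: without it, 1 of 25 other macrophage and monocyte genes was called downregulated and 1 upregulated (median -0.63), 0 of 19 lectin and Toll-like receptor genes were called by edgeR (5 at an unadjusted p under 0.05, median -0.60), and 2 of 20 cytokine and NF-kB response genes were called downregulated (median -0.79). The further limits given above for calls in sperm, from WT replicates 2 and 3 and Xap5l KO replicate 2, hold for all lists here.

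Other neutrophil genes were tested less often than other macrophage genes. Of 20 other neutrophil genes, 12 were tested in sperm, with 1 called downregulated (the chemokine receptor Cxcr2, log2 -2.83, with 29, 47 and 26 counts in WT against 10, 2 and 4 in Xap5l KO libraries; median -1.16), and Ly6g and Elane were at 0. Their sum was 382, 439 and 387 CPM in WT against 218, 247 and 391.5 CPM in Xap5l KO sperm, of which lactoferrin (Ltf), a granule protein that secretory epithelia also make, took 85.3% (log2 -0.44, edgeR adjusted p = 0.277). In testes 6 were tested and 1, the lipolysis inhibitor G0s2, was called upregulated (1.08; median 0.02), Hdc was the most abundant (0.36), and Ly6g, Mmp8, Retnlg, Fpr2 and Stfa2l1 were at 0. Without Xap5l KO sperm replicate 1, 2 of 13 neutrophil genes tested in sperm were called downregulated (median -0.91). Of 7 other MHC class II pathway genes, 0 were called in either tissue (7 tested in sperm, median -0.64; 3 in testes, median -0.22), and H2-DMa was the most abundant in both (-0.50 and 0.11). Of 12 other complement genes, 1 was called downregulated in sperm, the C5a receptor C5ar1 (-1.58; median -0.72), and 4 upregulated in testes (median 0.95), where C1s1, the most abundant (1.04), and the complement inhibitor Cd59a (1.24) had the smallest p, while C4b led in sperm (-0.98, edgeR adjusted p = 0.267). Among lymphocyte genes in sperm, 18 of 20 were negative and 2 of 20 were called downregulated (the natural killer receptor Klrb1c at -1.94 and the immunoglobulin light chain Igkc at -1.12; median -0.73), and Ighm, the most abundant, at -0.83 (edgeR adjusted p = 0.0821). The lymphocyte genes summed to 359, 299 and 444.3 CPM in WT sperm against 141, 239 and 254 CPM in Xap5l KO sperm, and their part in the result was not tested. In testes 6 of 17 lymphocyte genes in the table were tested (median -0.62) and 1 was called downregulated, and Cd3e was the most abundant (-0.73, edgeR adjusted p = 0.0776). Without Xap5l KO sperm replicate 1, 0 of 7 other MHC class II pathway genes (median -0.38), 0 of 12 complement genes (-0.63) and 0 of 20 lymphocyte genes (-0.60) were called in sperm by edgeR, and 1, 5 and 5 of them had an unadjusted p under 0.05.

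Values of other cells in the same libraries were as follows. In sperm the 7 erythroid genes summed to 22839.7, 4506 and 6966 CPM in WT against 5549.8, 1644 and 3752 CPM in Xap5l KO libraries, with Hbb-bs, a hemoglobin chain, the most abundant (log2 -1.63, edgeR adjusted p = 0.100). Of these genes 0 of 7 were called although all 7 were negative, and WT replicate 1 was far above the rest. The 15 epididymal epithelium genes summed to 6058, 8180 and 7007 CPM in WT against 5066, 4279.9 and 5958 CPM in Xap5l KO sperm, 0 of 9 tested were called (median -0.66), and Lcn9 was at 0. Crisp1, an epididymal secretory protein that took 88.5% of the sum, had a log2 fold change of -0.44 (edgeR adjusted p = 0.385). The 10 spermatid and sperm genes summed to 132642, 54214 and 64105 CPM in WT against 88405.5, 48284 and 69142 CPM in Xap5l KO sperm, led by the mitochondrial capsule gene Smcp (-0.97, edgeR adjusted p = 0.267). Of them 1 of 10, the fibrous sheath gene Akap4, was called upregulated (1.09; median 0.79). Without Xap5l KO replicate 1, edgeR called 0 of the 7 erythroid genes, 0 of 10 epididymal epithelium genes and 0 of the 10 spermatid and sperm genes (3, 2 and 4 at an unadjusted p under 0.05). The summed leukocyte genes without Cd52 were thus lowest in Xap5l KO replicate 1. The general epithelium, Sertoli cell and endothelium sums were also lowest there, at 281.6, 38.8 and 4.25 CPM. So were the lymphocyte, mast cell and dendritic cell sums, at 141, 21.5 and 10.7 CPM. The sums of the further macrophage, neutrophil, lectin and Toll-like receptor, cytokine, MHC class II and complement lists were lowest there too. The erythroid, epididymal, sperm, platelet, fibroblast, Leydig cell, peritubular myoid cell, spermatogonia and spermatocyte sums were not. The part of these other cells in the leukocyte values was not tested.

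In testes other cell types also had genes called. The 10 Sertoli cell genes summed to 3021, 3091 and 3229.8 CPM in WT against 4965, 5051 and 5177 CPM in Xap5 cKO testes (9 of 10 positive, 1 upregulated, median 0.70), with Ctsl the most abundant (0.66) and Amh called (1.14). The 8 Leydig cell genes summed to 586.5, 406 and 510.4 CPM in WT against 1177, 1177 and 733 CPM in Xap5 cKO testes (8 of 8 positive, 4 upregulated, median 1.04), with Nr5a1 the most abundant (0.84) and the luteinizing hormone receptor Lhcgr (1.51) and the steroidogenic enzyme Hsd3b1 (1.06) called. Leydig cell genes were thus lower in Xap5 cKO replicate 3 than in replicates 1 and 2, as the macrophage genes were, and Sertoli cell genes were not. The 7 fibroblast genes (7 of 7 positive, 3 upregulated, median 0.84) summed to 1457, 1199 and 1614 CPM in WT against 2657, 2565 and 2397 CPM in Xap5 cKO testes, led by Col1a2 (0.82), with Dcn (1.15) and Pdgfra (1.05) called. The 8 endothelium genes (0 called, median 0.60) summed to 97.2, 89.6 and 110.9 against 149.4, 147.2 and 140.9 CPM, led by Cdh5 (0.79). The 8 spermatocyte genes summed to 2592, 2669 and 1970.3 CPM in WT against 787, 848 and 1111 CPM in Xap5 cKO testes, with 7 of 8 downregulated (median -1.48), among them Sycp1, the most abundant (-1.23), the piRNA-pathway gene Piwil1 (-6.30) and the meiotic nuclease gene Spo11 (-2.74). The 8 spermatogonia genes summed to 719.9, 755.9 and 821 CPM in WT against 508, 509.9 and 468 CPM in Xap5 cKO testes, with 2 of 8 downregulated, Stra8 (-1.93) and Sall4 (-1.15), a median of -0.52, Gfra1 positive (0.56, edgeR adjusted p = 0.0321, under 2-fold), and Uchl1 the most abundant (-0.40). CPM are shares of a library, and the part in these values of fewer germ cells, and with it a larger share of somatic RNA, was not tested.

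**Figure D3:**
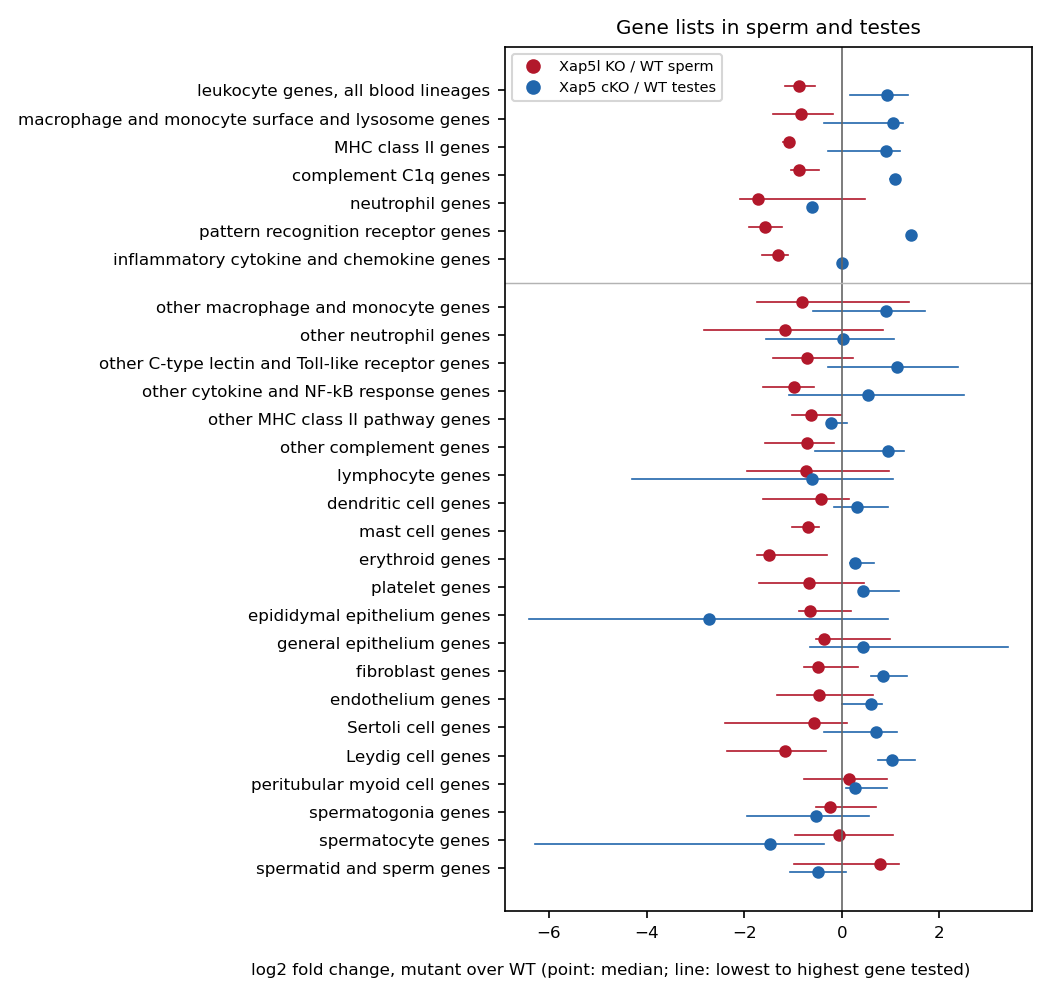
Median log2 fold change, mutant over WT, of the genes tested in each list (points) with the lowest and highest gene (lines), in sperm (red) and testes (blue), on the horizontal axis. The 7 groups of the 36 genes are above the grey line and the 21 further lists below it, mast cell genes had no gene tested in testes, and the medians of the 7 groups in sperm were between -1.71 and -0.84.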

How the data were processed

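RNA was measured in 3 WT and 3 Xap5l KO sperm libraries (day 56) and in 3 WT and 3 Xap5 cKO testis libraries (day 16), grouped by the sample labels. The authors deposited raw counts in 1 table per tissue, all whole numbers. Per the submitters' processing notes, reads were checked with FastQC 0.11.2, trimmed with Trimmomatic 0.36 and mapped to GRCm38 with HISAT2 2.1.0, and DESeq2 1.12.4 was used. In their paper, poly(A) RNA and the NEBNext Ultra II RNA kit were used and StringTie served for assembly. Which tool made the tables of counts, its use of strand and what it did with multiply mapped reads were not given in the sources used here, so entries of similar or overlapping genes may share reads.

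The members, the 7 role groups and the 21 further lists (239 genes) were chosen with earlier results of these data known. Each tissue was fitted apart in edgeR 4.0.16 (filterByExpr, TMM, quasi-likelihood test, genotype as the only term, Benjamini-Hochberg adjustment over all genes tested), with calls at an adjusted p under 0.05 and a fold change above 2. Standard errors were taken as the absolute log2 fold change over the square root of the F statistic. The difference between tissues was tested in 1 fit over the raw counts of both tables. The design of 3 against 3 libraries gives few residual degrees of freedom, and no permutation of labels was used. Entries with an identical name (Itgam, Lilrb4a and Spata22 in sperm) were kept apart, and the one with most counts carried the name. Entries with a suffixed name (Laptm5-2 and those of H2-Aa, H2-Ab1 and H2-Eb1 in testes) were also kept apart, and the unsuffixed entry stood for the gene, although Laptm5-2 had more counts than Laptm5. Mitochondrial names occurred 37 times in the sperm table and 0 times in the testis table.

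Genes were named by a rule: counts in every library and full statistics for the member with the most counts and the member with the smallest edgeR p in each role group and tissue, values in brief for the other members, and from each further list the most abundant gene and up to 2 called genes with the smallest p in each direction. Gfra1, the second entries and the counts of S100a8, Itgam, Fcgr3, Cxcr2, Aif1, Cybb and the members near the floor, and the CPM of Csf1r and Adgre1 in sperm, were added after their values were seen. Alternatives were RLE size factors, library size alone, TMM without mitochondrial genes, other filters and thresholds, DESeq2 1.42.0, a replicate block, each library left out and, chosen after seeing the data, entries of 1 gene summed. Positions and exon lengths came from GENCODE (release for GRCm38), and promoters from RefSeq. The scripts were tested on simulated data. R 4.3.3, Python 3.11.15 and matplotlib 3.10.9 were used. No 2 libraries of a group were alike within counting noise. The labels call the replicates biological.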

Additional observations from a re-analysis of the deposited data

How the results depend on the processing

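The number of the 36 genes called downregulated in Xap5l KO sperm, 17, became 13 with RLE size factors, 7 with library size alone, 17 without mitochondrial genes, 16 with no filter, 17 with at least 10 counts in every library, 18 with DESeq2, 17 with entries of 1 gene summed and 0 at an adjusted p under 0.01, which no gene of that table reached. Of all genes tested, 0.945% were called downregulated with RLE size factors, 0.666% with no filter, 1.48% with at least 10 counts and 1.66% with DESeq2. Of the 17, 14 were among the 16 called with no filter, 16 among the 17 with at least 10 counts and 15 among the 18 with DESeq2. With each library left out in turn the number ranged from 0 to 21, and of the 21 called without Xap5l KO replicate 3, 14 were among the 17. Then 2 libraries stand against 3. No setting called any of the 36 genes upregulated in sperm or downregulated in testes. The number called upregulated in Xap5 cKO testes, 16, lay between 13 and 20 under the other settings and thresholds, and from 7 to 19 with each library left out, where 15 of the 19 called without WT replicate 1 and 15 of the 18 without Xap5 cKO replicate 3 were among the 16. With all 6 libraries and the same thresholds, between 3.51% and 4.22% of all genes tested in testes were called upregulated under these settings. The number whose change differed between sperm and testes, 25, of which 22 were tested in both tissues, lay between 22 and 27 under all settings run. With single libraries left out, the log2 fold change changed sign for Il1b in testes (-0.44 to 1.08), S100a8 in sperm (-0.20 without Xap5l KO replicate 3, up to 0.75 without replicate 1) and Cd52 in testes (-0.10 to 0.45). The cause of these differences was not tested.

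Replicate numbers are shared between genotypes, but same-numbered libraries did not deviate together, apart from a weak correlation of sperm replicates 1. The correlations of their deviations from the group means were 0.17, -0.02 and -0.14 in sperm and 0.00, -0.04 and -0.05 in testes. Of the same-numbered pairs only WT and Xap5l KO sperm replicates 1 were each other's best match. With the number as a replicate block, 9 genes were called downregulated in sperm (0.702% of all genes tested) and 16 upregulated in testes (3.93%). For 26 genes the change was lower in sperm than in testes, as it was for 14.5% of all genes in that fit.

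With 3 libraries per genotype, calls in sperm rest on a wide spread between replicates (biological coefficient of variation 0.287, against 0.174 in testes). In testes 8 of the 36 genes had too few counts to be tested with all 6 libraries. Clec4d, Clec7a and Ccl4 were tested in 4 fits each with 1 library left out. Their log2 fold changes were positive there (1.65 to 2.86, 1.48 to 1.91 and 5.86 to 6.47), and Ccl4 was called upregulated in 1 fit. No direction is given for the others. The preparations were not sorted, and no measure of cell numbers was used here.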

Other observations

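Further cell types gave few calls. In sperm, 1 of 5 dendritic cell genes tested was called downregulated, the lectin Cd209a (log2 fold change -1.62, edgeR adjusted p = 0.0162), and the chemokine receptor Ccr7 was the most abundant (-0.60). Without Xap5l KO replicate 1, 0 of 6 were called by edgeR (1 at an unadjusted p under 0.05). None of the 6 mast cell genes (median -0.68, Tpsb2 the most abundant at -0.76), 4 platelet genes (-0.67, Itga2b at -0.24), 9 general epithelium genes (-0.36, Krt19 at -0.44), 7 fibroblast genes (-0.49, Dcn at -0.49), 5 endothelium genes (-0.47, Pecam1 at -0.67), 6 Leydig cell genes (-1.17, Insl3 at -1.55), 6 peritubular myoid cell genes (0.15, Actg2 at 0.92), 5 spermatogonia genes (-0.25, Kit at 0.07) and 7 spermatocyte genes (-0.06, Ybx2 at 1.04) tested in sperm was called by edgeR. Among 8 Sertoli cell genes (median -0.58, Ctsl the most abundant at -0.31), the tight junction gene Cldn11 was called downregulated (-1.53). Without Xap5l KO replicate 1, 1 of 9 Sertoli cell genes was called downregulated (median -1.11), and the medians were -1.63 for 5 platelet genes, -0.39 for 6 mast cell genes, -0.73 for 7 fibroblast genes and -1.36 for 7 Leydig cell genes, with none of these 4 lists having a gene called by edgeR (2, 1, 4 and 4 genes at an unadjusted p under 0.05).

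In testes, 0 of 4 dendritic cell genes (median 0.30, Zbtb46 at 0.95), 0 of 5 erythroid genes (0.27, Hbb-bs at 0.27) and 0 of 6 peritubular myoid cell genes (0.27, Acta2 at 0.33) were called. Of 3 platelet genes, Pf4, the most abundant, which macrophages also express, was called upregulated (1.17, edgeR adjusted p = 0.0141). Of 6 general epithelium genes, 3 were called upregulated, among them the claudin Cldn7 (1.16) and the keratin Krt18 (3.41), while Epcam, the most abundant, was at -0.35. Of the epididymal epithelium genes only 2 were tested, and the aquaglyceroporin Aqp9, with 462, 449 and 202 counts in WT against 0, 12 and 0 in Xap5 cKO testes, was called downregulated (-6.41). Of 2 spermatid and sperm genes tested, Odf2 was called downregulated (-1.06). The mast cell genes had too few counts to be tested, the most abundant, Mcpt4, having 0, 0 and 7 counts in WT against 6, 32 and 12 in Xap5 cKO testes.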
